A study of Mus musculus with 4 samples.

Results

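Accessible chromatin was described at the mouse beta-globin locus on chromosome 7, which holds the genes Hbb-bt, Hbb-bs, Hbb-bh2, Hbb-bh1 and Hbb-y and, beyond Hbb-y, the locus control region. Peaks were taken wherever their summit lay between the outer ends of these 5 genes or within 50 kb of them on either side, a window of 140.684 kb. Peaks of different libraries that shared at least 1 bp were merged, which gave 20 regions in the locus out of 55290 in the series. The assay was ATAC-seq: a transposase inserts adapters into open DNA, and the released fragments are sequenced. The cells came from whole fetal livers at embryonic day 14.5 (E14.5) and were processed by an Omni-ATAC protocol. There were 4 libraries, 2 of the WT (wild-type) and 2 of the Hemgn KO (knockout) genotype. The targeted gene, Hemgn, codes for hemogen, which is found in the nuclei of hematopoietic cells. The labels name no strain, no agent, no kind of knockout allele and no pooling, and they do not tell if each replicate is another embryo. The p-values below therefore measure the spread between these libraries, which may be technical.

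Beta-globin is a chain of hemoglobin, the oxygen carrier of red cells. Hbb-bs and Hbb-bt are the adult genes of the locus, while Hbb-y and Hbb-bh1 are the genes of embryonic red cells and Hbb-bh2 is a little expressed relative. The fetal liver makes definitive red cells, which use the adult genes. The locus control region is a cluster of DNase-hypersensitive enhancers that bind erythroid factors and contact the promoter in use. Olfactory receptor genes (Olfr), which are silent in red cells, lie on both sides of the locus.

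The sequences before the adult genes and Hbb-y are shown because the adult starts were among the 3 tallest peaks of the locus in every library, while Hbb-y had a peak near its start in 1 library only. Each is the 250 bases before the RefSeq start, 5′ to 3′ on the minus strand of GRCm38.p6. The Hbb-bt window is chr7:103813924-103814173, the Hbb-bs window is chr7:103827929-103828178 and the Hbb-y window is chr7:103853208-103853457. Of the 5 genes, 4 matched the RefSeq promoter table, and Hbb-bh1 did not. Capitals mark every match, on either strand, to 6 sets of letters. As background, CACCC and the longer CCNCNCCC, which can overlap it, are the letters that KLF1 binds in adult globin promoters. CCAAT is the box bound by NF-Y, while GATAA is the core of GATA1 sites. TATAA is the TATA box, for which globin genes often have CATAAA.
Hbb-bt: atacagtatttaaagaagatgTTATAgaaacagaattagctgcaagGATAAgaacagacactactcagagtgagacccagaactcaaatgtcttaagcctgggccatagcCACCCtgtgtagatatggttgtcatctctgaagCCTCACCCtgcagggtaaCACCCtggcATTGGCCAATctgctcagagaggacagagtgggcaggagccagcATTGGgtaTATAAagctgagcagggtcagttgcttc
Hbb-bs: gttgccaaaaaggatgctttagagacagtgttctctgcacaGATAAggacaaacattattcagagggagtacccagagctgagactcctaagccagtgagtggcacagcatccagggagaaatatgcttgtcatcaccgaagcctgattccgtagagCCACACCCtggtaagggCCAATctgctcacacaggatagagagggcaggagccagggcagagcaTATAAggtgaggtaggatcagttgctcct
Hbb-y: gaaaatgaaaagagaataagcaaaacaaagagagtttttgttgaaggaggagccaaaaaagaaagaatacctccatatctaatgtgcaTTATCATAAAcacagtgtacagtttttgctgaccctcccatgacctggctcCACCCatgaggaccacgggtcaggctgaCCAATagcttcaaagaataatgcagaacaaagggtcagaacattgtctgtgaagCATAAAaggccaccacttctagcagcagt
Both adult promoters hold a GATA1 core, a CACCC box, a CCAAT box and a TATA box in this order on the gene's strand, and Hbb-bt has further matches that Hbb-bs lacks. CCNCNCCC begins 107 bases before the start in Hbb-bt and 93 bases before it in Hbb-bs. A forward CCAAT begins 75 and 76 bases before these starts, and TATAA begins 28 and 29 bases before them. A forward GATAA begins 204 and 209 bases before them. The Hbb-y window has CACCC 111 bases, CCAAT 83 bases and CATAAA 29 bases before its start, and it holds no CCNCNCCC and no TATAA. It also has GATAA on the other strand 162 bases before the start and a second CATAAA 158 bases before it. Of the 2 adult windows, 185 of 250 bases are identical in an alignment (74.0%), with a longest shared run of 14 bases. Hbb-y shares 62.0% with Hbb-bt and 60% with Hbb-bs. These letters are common: CACCC was in 52.0% of 32851 promoter windows of this length, CCNCNCCC in 45.9%, CCAAT in 33.8%, TATAA in 22.8%, GATAA in 22.6% and CATAAA in 10.8%. A match describes the letters and is not a measured binding site.

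The deposited peak lists hold, for each peak, its fold over the local background and its −log10 p. From these the whole number of fragments at the summit and the local background in fragments were recovered. The libraries differed in depth: the background of a library away from local enrichment was 5.67 and 2.29 fragments in the first and second WT replicate, and 2.49 and 3.80 in those of the Hemgn KO. Peak numbers were 47858, 34181, 35426 and 43018 in that order, which is kept for all lists of 4 values below. Fragments were divided by size factors of 1.72, 0.695, 0.785 and 1.08, the median ratios over the 27473 regions with a peak in every library, and are then called normalised fragments. Of the 9 erythroid marker genes in the gene table, 8 had a peak within 1 kb of an end in all 4 libraries. So did 3 of 8 hepatocyte, 3 of 6 megakaryocyte, 1 of 6 endothelial and 1 of 6 lymphocyte genes, but 0 of 6 macrophage and 0 of 6 granulocyte genes. Among 14 regulators of the beta-globin genes, 12 had such a peak. The share over all genes is not given here, so these counts do not identify the cells. The targeted gene Hemgn had a region at one of its ends (chr4:46403640-46405019) with 154, 170.0, 162 and 184 normalised fragments, and a second region in or next to it with 150.2, 121, 73.9 and 110.2. Peaks there do not measure the gene's product, so they do not check the genotype labels.

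Most regions of the locus had a peak in both genotypes. WT replicates had 17 and 14 peaks and Hemgn KO replicates had 16 and 16, a mean of 15.5 ± 2.12 (SD, n = 2) against 16 ± 0 (SD, n = 2), and an exact two-sided permutation test gave p = 1. The peaks covered 10.643 and 9.639 kb in WT and 8.562 and 10.454 kb in KO, or 10.1 ± 0.710 against 9.51 ± 1.34 kb (SD, n = 2 each, exact permutation p = 0.667). With 2 against 2 libraries the smallest p such a test can give is 0.333. A peak was present in all 4 libraries in 14 of the 20 regions, against 49.7% of all regions of the series. No region had a peak in both WT and neither KO library, where the series has 2.2%, and none had a peak in both KO and neither WT library, where the series has 1.41%. With shares this low, a count of 0 among 20 regions does not set the locus apart.

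**Figure D1:**
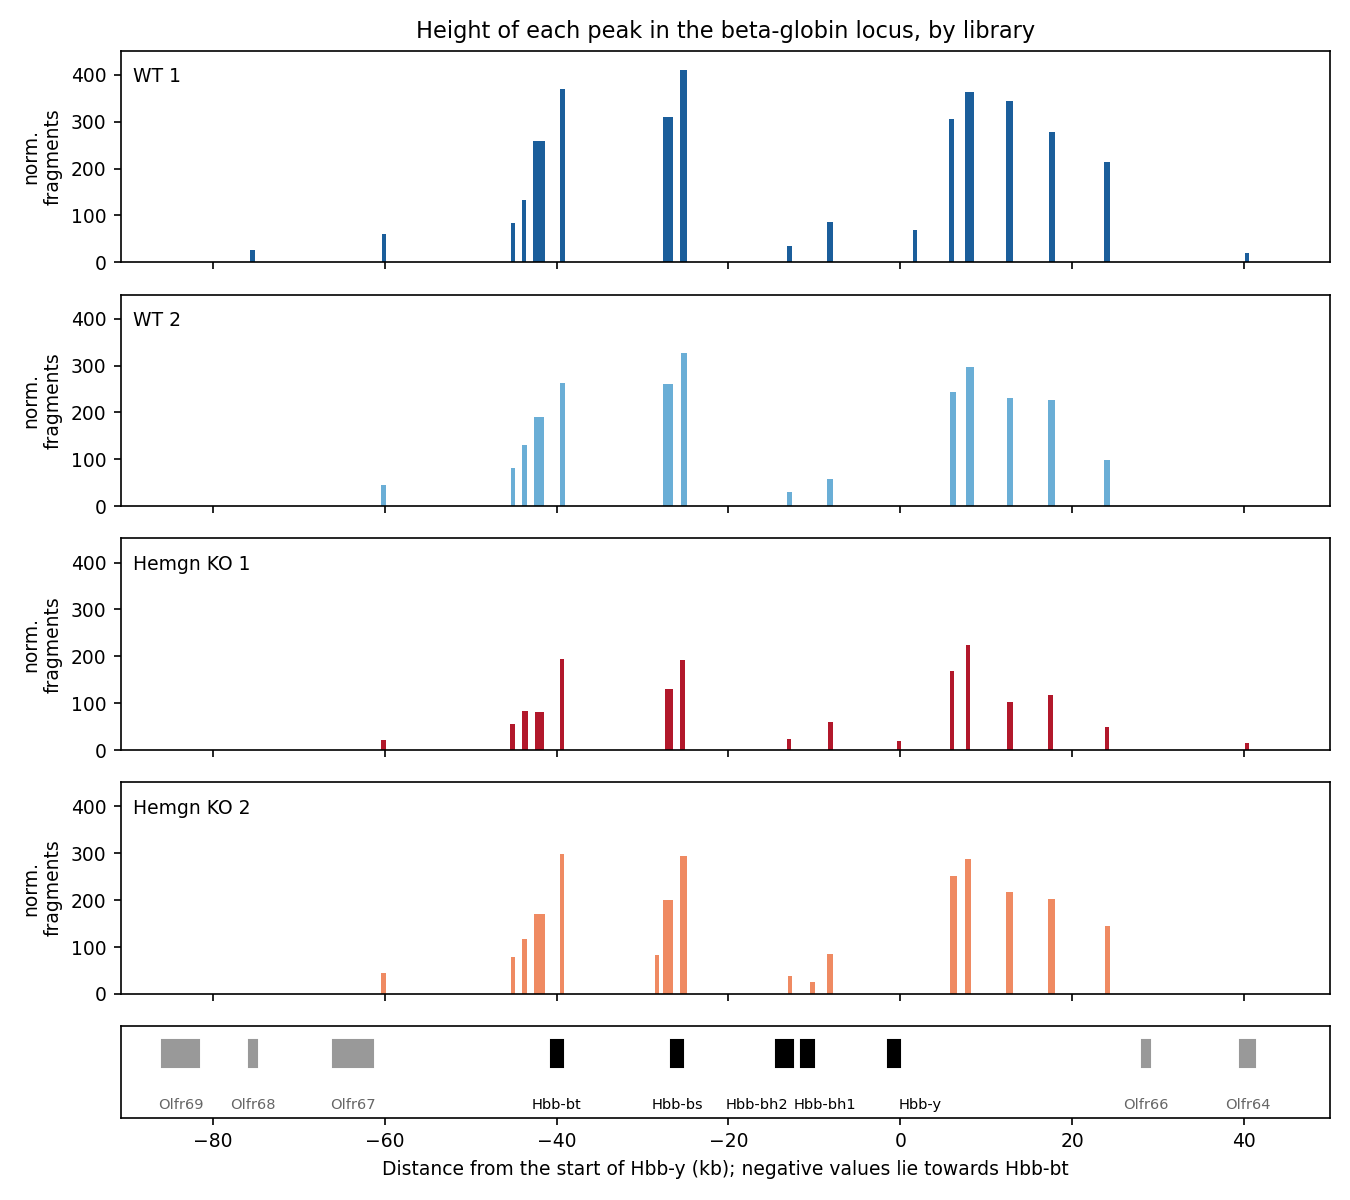
Peaks of the beta-globin locus in each library, by distance from the start of Hbb-y in kb (negative values towards Hbb-bt), with height in normalised fragments; bars are peaks, drawn at least 0.5 kb wide, and boxes are genes (black, beta-globin; grey, olfactory receptor). The 14 shared regions line up in all 4 rows, with the tallest bars at the adult genes and beyond Hbb-y.

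Both adult genes had a peak at their start in every library, with a nearly fixed summit. The Hbb-bs start region (chr7:103827592-103828343) had its summit at the same base, 103827939, in all 4 libraries, 11 bases before the RefSeq start. The Hbb-bt start region (chr7:103813610-103814113) had its summits 8 to 10 bases before the start. Across 26187 shared regions with 1 peak per library, the median spread of summits was 85 bp, and 2.23% had a spread of 0. At the Hbb-bs start the recovered heights were 708, 227, 151 and 318 fragments, or 411, 327, 192 and 294.5 normalised fragments. At the Hbb-bt start they were 638, 182, 153 and 322 fragments, or 369.9, 262, 195 and 298 normalised fragments. At Hbb-bs both KO libraries were below both WT libraries, and at Hbb-bt Hemgn KO replicate 2 lay between the WT replicates. Peak widths were 716, 662, 571 and 746 bp at the Hbb-bs start and 445, 405, 475 and 468 bp at the Hbb-bt start.

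Each adult gene also had a peak at its far end in every library. At the far end of Hbb-bs (chr7:103825574-103826762) normalised fragments were 310.2, 260.5, 131 and 200.04, and at that of Hbb-bt (chr7:103810521-103811813) they were 259, 190.0, 81.5 and 171. Hemgn KO replicate 1 was lowest and WT replicate 1 highest at both, with no overlap between the genotypes. Unlike the starts, the far-end region of Hbb-bs had summits spread over 607 bp, and this spread followed genotype. Both WT summits lay at base 103826043, and the KO summits lay at 103826650 and 103826454. The heights of WT and KO were thus taken at different bases there. Hbb-bs and Hbb-bt are close copies in their transcribed parts, and the sources used here do not give how reads mapping to both were treated. Regions that reach into these parts may therefore share reads. Both start regions and the far-end region of Hbb-bs do reach into them. The far-end region of Hbb-bt lies outside the gene, with a median summit 0.935 kb beyond it. Whether the sequences past the 2 genes are alike was not tested. On the side of Hbb-bt away from the other genes, 3 further regions were present in all libraries, 3.04, 4.47 and 19.4 kb beyond it, with 20.4 to 134 normalised fragments.

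At the remaining genes peaks were low or absent. In Hbb-bh2 a region (chr7:103840047-103840559) was present in all 4 libraries with 34.2, 30.2, 22.9 and 38.9 normalised fragments, and all of its summits lay inside the gene, between 113 and 296 bases inside it from its start. Hbb-bh1, an embryonic gene, had a region (chr7:103842756-103843268) in Hemgn KO replicate 2 alone, with 27 fragments. Hbb-y, the other embryonic gene, had a region at its start (chr7:103852950-103853168) in Hemgn KO replicate 1 alone, with 15 fragments and a summit 107 bases inside the gene. The fewest fragments in any called peak were 15, 9, 9 and 12, and a missing peak means only that none was called. Between the embryonic genes, 1.77 kb beyond Hbb-bh1 towards Hbb-y, a region (chr7:103844684-103845400) was found in every library with 87.0, 59.0, 59.9 and 85.2 normalised fragments. There the genotypes overlapped.

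Beyond Hbb-y, on the side of the locus control region, 5 regions were present in every library, with summits 6.10, 7.91, 12.7, 17.6 and 24.1 kb from the Hbb-y start. The region at 7.91 kb (chr7:103860762-103861781) was as tall as the adult starts, with 626, 207, 176 and 311 fragments, or 363, 298, 224 and 288 normalised fragments. In Hemgn KO replicate 1 it was the tallest peak of the locus, ahead of Hbb-bt with 153 and Hbb-bs with 151 fragments, while in WT replicates 1 and 2 Hbb-bs was tallest and in Hemgn KO replicate 2 Hbb-bt was. The same 3 regions led the locus in all 4 libraries. At 6.10 kb (chr7:103858941-103859775) normalised fragments were 306, 245, 169 and 252, so Hemgn KO replicate 2 lay between the WT replicates. At 12.7 kb (chr7:103865569-103866370) they were 345, 230.3, 102 and 217, and at 17.6 kb (chr7:103870388-103871180) 278, 227, 117 and 203. At both, the KO libraries were below the WT libraries, and replicate 2 of each genotype lay close together at 12.7 kb. The farthest region, at 24.1 kb (chr7:103876908-103877630), varied most within a genotype, with 214 and 97.9 normalised fragments in WT and 49.7 and 144 in KO. Summits in this stretch were spread over 48, 6, 200, 7 and 34 bp, in order of distance from Hbb-y. The spread was at most 10 bp in 11.5% of the one-peak shared regions of the series.

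**Figure D2:**
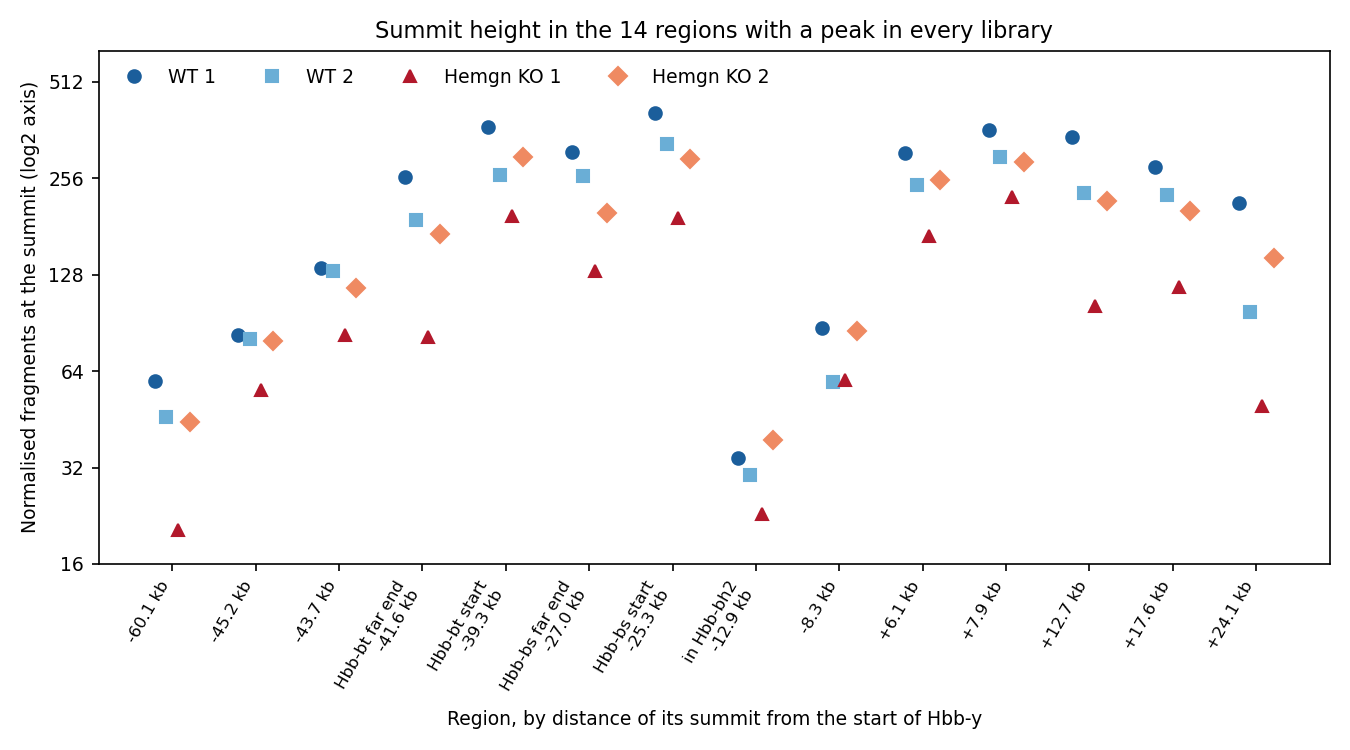
Normalised fragments at the summit (log2 axis) of the 14 regions with a peak in all 4 libraries, in order along the locus by distance from the Hbb-y start; points are single libraries. The adult gene starts and the region 7.91 kb beyond Hbb-y are the tallest, and Hemgn KO replicate 1 is the lowest library at 13 of the 14 regions.

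The other 6 regions were called in 1 or 2 libraries, with 12 to 120 fragments. WT replicate 1 alone had a region in Olfr68 (chr7:103777684-103777962, 44 fragments) and a region 1.66 kb beyond the Hbb-y start (chr7:103854786-103855055, 120 fragments). Hemgn KO replicate 2 alone had a region 1.52 kb beyond Hbb-bs (chr7:103824806-103825057, 90 fragments). A region in Olfr64 (chr7:103893432-103893742) was called in WT replicate 1 with 34 fragments and in Hemgn KO replicate 1 with 12. Of the 5 Olfr genes in the window, 2 had a region and 0 had a region in all 4 libraries. With the Hbb-bh1 and Hbb-y regions above, none of the 6 was replicated within a genotype.

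Fold enrichment gives the locus a much lower rank than fragments do. Among all peaks of their own library, the shared regions had a median percentile of fold of 55.5, 38.2, 37.0 and 51.1, but a median percentile of fragments of 85.1, 75.9, 65.9 and 79.6. The percentile of fragments was the higher in 12 of 14 regions in each library. It was higher by more than 25 points in 10, 10, 7 and 8 of the 14, against 10.1% to 11.5% of all peaks. The background around these peaks was itself high, with a median over the shared regions of 16.1, 13.4, 8.11 and 11.8 times the library's own background, where all peaks have medians of 1.45, 2.0, 1.94 and 1.66 times. At the Hbb-bs start the local background was 117, 36.6, 21.0 and 50.7 fragments. At Hbb-bh2 it was 13.6, 4.32, 4.70 and 9.84 fragments, much closer to the library background. A fold at this locus is therefore a height over a raised recovered background, and its percentile cannot be read as a height. The settings behind that background are not given, and how far the peaks' own reads enter it was not tested.

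**Figure D3:**
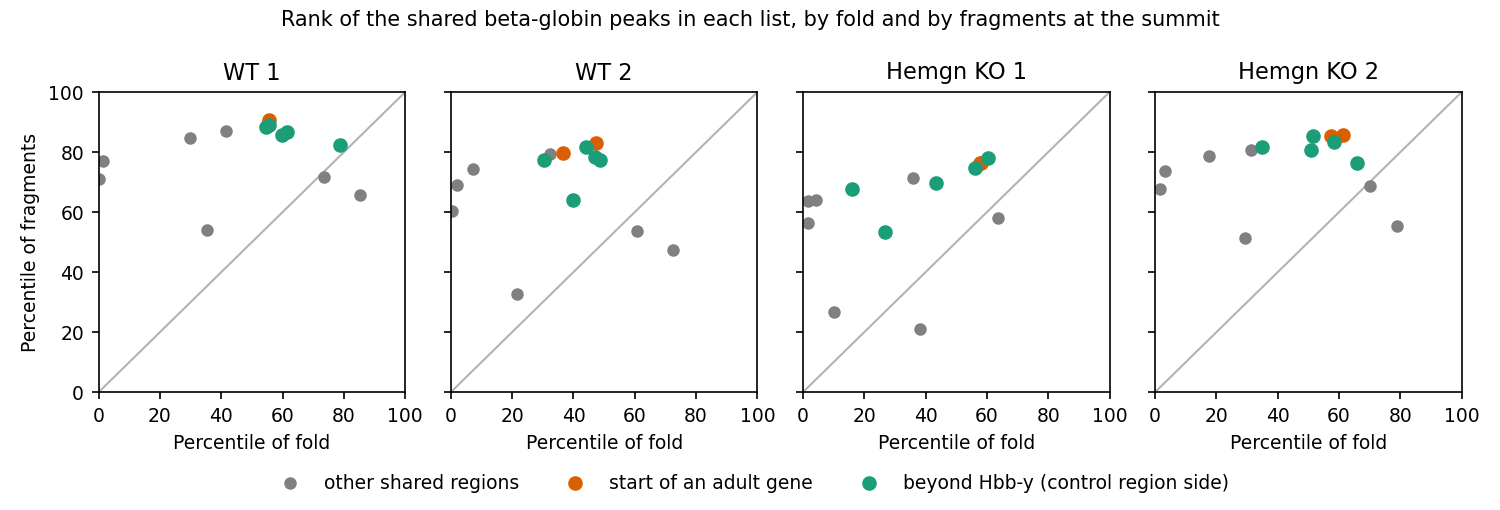
Percentile of each of the 14 shared regions among all peaks of its library, by fold enrichment (x axis) and by fragments at the summit (y axis), with 1 panel per library and a line where both are equal. In every library 12 of the 14 points lie above the line.

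Percentiles of fold at the adult gene starts were higher in both KO lists than in both WT lists, which differ in length. The percentiles at the Hbb-bs start were 55.7 and 47.5 for the WT libraries, below 58.2 and 57.2 for the KO libraries. For the Hbb-bt start, 55.2 and 36.5 (WT) stood against 57.6 and 61.3 (KO). With the regions 3.04 and 4.47 kb beyond Hbb-bt, both KO libraries were above both WT libraries in 4 of 14 regions, against 9.97% of all shared regions, and both were below in 0, against 13.6%. These counts of 4 and 0 did not hold with lists cut to equal length. There 2 regions were above and 2 below by fold, and 2 above and 3 below by −log10 q. Which regions these were is not given here. At the locus control region the groups overlapped in all 5 regions. At 7.91 kb the percentiles were 55.7, 44.1, 60.5 and 51.4, and at 12.7 kb they were 54.5, 30.4, 15.8 and 34.9. Over the 14 regions the KO mean was lower in 8, against 56.3% of all shared regions, with a median difference of −1.89 points against −0.58 for all. The per-library medians gave an exact two-sided permutation p of 0.667. By percentile of fragments, the KO mean was lower at 13 of 14 regions, against 54.4%, with a median difference of −5.17 points. No region then separated the genotypes in either direction, against 6.62% below and 6.7% above.

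Normalised fragments were lower in KO on average along the whole locus, and Hemgn KO replicate 1 lay lowest. The KO mean was below the WT mean at 14 of 14 shared regions, against 50.4% of all shared regions, with a median log2 difference of −0.53 against −0.0024 for all. Both KO libraries were below both WT libraries at 9 of 14, against 22.1%, and above them at 0, against 21.8%. Hemgn KO replicate 1 was the lowest library at 13 of 14 regions, against 32.3% of all, and WT replicate 1 the highest at 13, against 26.2%. The median log2 normalised fragments over the 14 regions were 8.07, 7.70, 6.52 and 7.53, with an exact permutation p of 0.333, the smallest possible. Without Hemgn KO replicate 1 the median log2 difference was −0.19, and it was negative at 12 of 14 regions. Neighbouring regions share cells, libraries and local background and are not independent.

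In a limma fit over all 27473 shared regions, with Benjamini-Hochberg adjusted p under 0.05 as the call, 3 of the 14 regions were called lower in KO and 0 higher. In the series 174 regions (0.633%) were called lower and 188 (0.684%) higher. Scaling to the library background instead gave 755 lower and 272 higher in the series and 7 lower in the locus, and cyclic loess gave 74 lower and 207 higher and 1 in the locus. The far end of Hbb-bs fell by 0.81 on the log2 scale (SE 0.165, limma adjusted p = 0.0146). There the WT and KO heights were taken at different bases, as given above. The region 12.7 kb beyond Hbb-y fell by 0.92 (SE 0.230, limma adjusted p = 0.0487). The far end of Hbb-bt fell by 0.91 (SE 0.228, limma adjusted p = 0.04998). The Hbb-bs start, at −0.62 (SE 0.160), had a limma adjusted p of 0.0560, and the region at 17.6 kb, at −0.71 (SE 0.186), one of 0.0592. The Hbb-bt start was at −0.37 (SE 0.172, limma adjusted p = 0.323), the region at 7.91 kb at −0.37 (SE 0.14, limma adjusted p = 0.192) and that at 6.10 kb at −0.41 (SE 0.161, limma adjusted p = 0.224). The 24.1 kb region, at −0.77, had a wider error (SE 0.338, limma adjusted p = 0.281). Hbb-bh2, at −0.11, and the region between the embryonic genes, at −0.0045, were nearest to 0. Unadjusted p was under 0.05, on the lower side, at 11 of the 14, against 8.68% of all, and on the higher side at 0, against 5.91%. Without Hemgn KO replicate 1, 0 of the 14 were called and 4 had an unadjusted p under 0.05, and the far end of Hbb-bs was then at −0.51 (limma adjusted p = 0.124). The far end of Hbb-bt was then at −0.37 and the 12.7 kb region at −0.38, and the starts of Hbb-bs and Hbb-bt were at −0.31 and −0.062. The 24.1 kb region, at −0.0022 without that library, moved the most. With WT replicate 1 left out, 1 was called, without WT replicate 2 it was 7, and without Hemgn KO replicate 2 it was 11. Pairing the libraries by replicate number gave 5 calls.

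**Figure D4:**
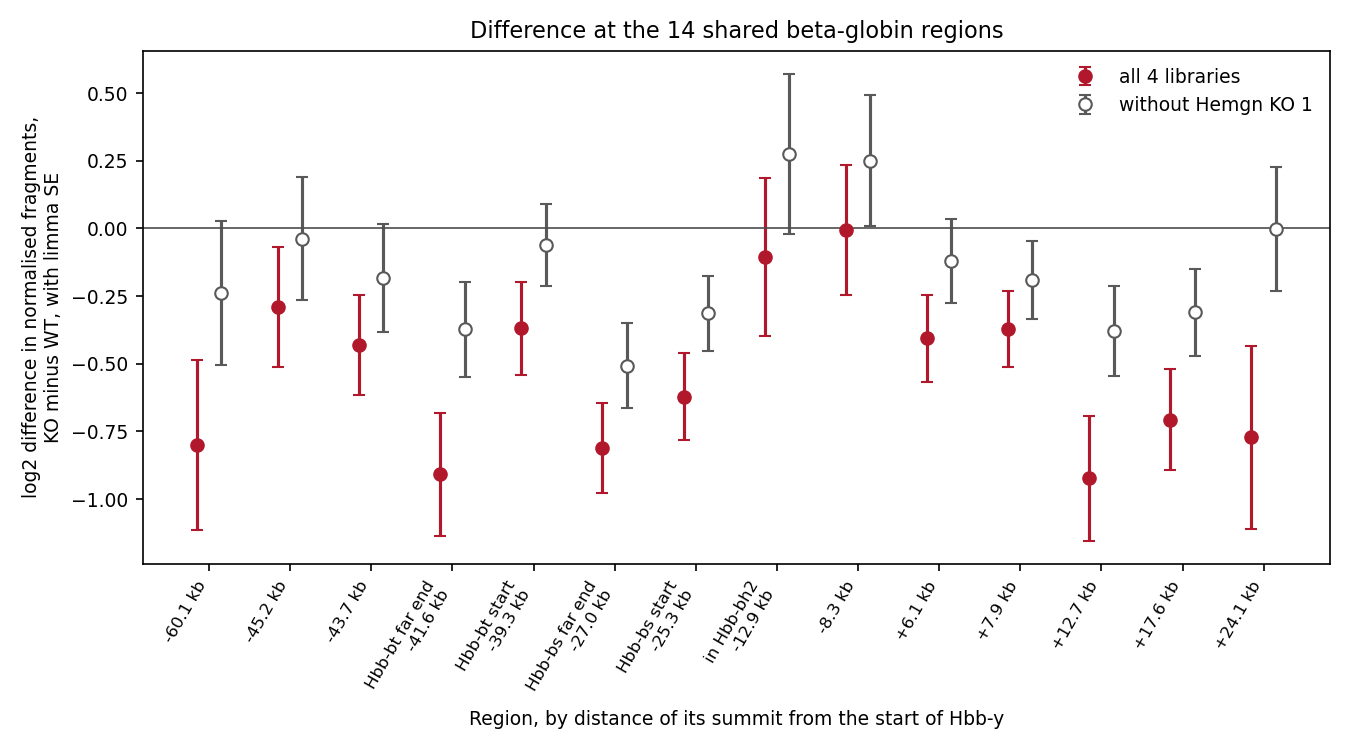
Log2 difference in normalised fragments, KO minus WT, at the 14 shared regions in order along the locus (filled points, all 4 libraries; open points, without Hemgn KO replicate 1; bars, limma standard error). All 14 filled points lie below 0, and 12 of the 14 open points do.

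At the erythroid marker genes and most of the alpha-globin locus, KO means were lower as well, against the series shares given above (50.4% with a lower KO mean, 22.1% with both KO below and 21.8% with both above). The alpha-globin locus, which supplies the other chain of hemoglobin, had 25 regions by the same rule and 18 in all libraries. The KO mean was lower at 14 of these 18, with a median log2 difference of −0.42. Both KO libraries were below both WT libraries at 10 and above them at 4, and Hemgn KO replicate 1 was lowest at 12. The regions at Hbq1a and Hbq1b, theta-globin genes of that locus, were at 0.65 and 0.29. Counts at the alpha-globin genes are uncertain, because Hba-a1 and Hba-a2 have almost the same sequence. At the erythroid marker genes, the KO mean was lower in 10 of 10 shared regions, with a median of −0.46, and both KO were below both WT at 8. Examples are Epb42, a membrane skeleton protein, at −0.52, Klf1, an activator of adult beta-globin, at −0.48, and Alas2, the first enzyme of heme synthesis in red cells, at −0.30. Summed normalised fragments over these 10 regions fell between 2580 and 2836 for the WT libraries, against 2013 and 2277 for KO replicates 1 and 2. Without Hemgn KO replicate 1 the median was −0.27, with 10 of 10 still negative. Among 14 regulators of the beta-globin genes, 12 had a shared region, of which 6 of 12 were lower in KO with a median of 0.0031.

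Markers of other cells of the fetal liver had few shared regions. Hepatocyte markers had a peak in all libraries at 3 of 8 genes, and 3 of their 4 shared regions had a lower KO mean. Of these 4 regions, 2 belonged to 1 gene, Trf. Their median log2 difference was −0.42, near the −0.46 of the erythroid markers. Without Hemgn KO replicate 1 it was −0.51, with 4 of 4 negative, against −0.27 for the erythroid markers. Summed normalised fragments over the 4 regions came to 220.3 and 190.0 for the WT libraries, against 168 and 154 for KO replicates 1 and 2. Megakaryocyte markers had 3 shared regions, 2 lower in KO, with sums of 316 and 285 in WT and 223 and 264 in KO. Endothelial and lymphocyte markers had 2 shared regions each, with a higher KO mean at all 4, but each pair belonged to 1 gene, Kdr and Ebf1. Endothelial sums were 65.5 and 53.2 in WT against 77.7 and 72.2 in KO, and lymphocyte sums were 87.6 and 59.0 against 93.0 and 84.3. Macrophage markers had a peak at 4, 1, 1 and 3 of 6 genes and granulocyte markers at 3, 2, 1 and 2 of 6. The part of cell composition in the lower globin heights was not tested. In bulk tissue, fewer erythroid cells and less open chromatin per cell cannot be told apart.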

How the data were processed

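ATAC-seq of E14.5 fetal liver was deposited as 4 MACS2 narrowPeak lists, 1 per library and none pooled. The submitters' processing notes name MACS2 2.2.7.1, Bowtie2 2.3.5, Picard 2.21.4 and SAMtools 1.9; what each did, its settings and the build are not given in the sources. The score that the authors deposited equals 10 times the −log10 q, cut to a whole number. The fold is a ratio that the authors deposited, of summit fragments to local background, with 1 added to both. For each peak −log10 p and −log10 q are deposited as well, and the summit is given as a distance from the peak start. Replicate numbers in the peak names differ from those of the labels, which were used.

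Of the peaks, 96.9% to 99.8% had a whole number of fragments that returned the deposited fold and the −log10 p within 0.001. Whether these are reads or extended reads is not given, and a peak list does not hold the total depth. Autosomal (1 to 19), X and Y peaks were merged at 1 bp of overlap. Every region whose summit lay in the locus is described, by its place relative to gene ends (within 1 kb counts as at the gene). Gene places are from a RefSeq table of GRCm38.p6: 14.0% of summits lay in its promoter windows, against 0.595% to 0.758% after shifts of 5, 20 and 50 kb. Log2 normalised fragments were fitted with limma 3.58.1 (trended prior) in R 4.3.3, with no pairing. On simulated heights, 67.0% of regions changed by a log2 of 1 and 99.0% of those changed by 2 were recovered, with 9 false calls among 27473 regions. These heights varied independently with a fixed, chosen spread, and only taller regions were changed. The rates describe that setting and cannot be carried over to the real libraries. The members and lists were chosen with earlier results of these data known, and the comparison of normalised fragments was added after the data were seen, as were its alternatives. Alternatives varied the flanks, the overlap, the list length, the measure ranked, the scaling, the pairing and the libraries used.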

Additional observations from a re-analysis of the deposited data

How the results depend on the processing

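The lower normalised fragments at the locus kept their direction under every alternative of scaling and left-out library, with a median log2 difference between −0.81 and −0.19. The pairing alternatives cannot alter this median, which stayed at −0.53 by construction. The count of 9 regions with no overlap was 10 with library background scaling and 9 with cyclic loess. With 1 library left out it was 9 to 13, but leaving out a library can only keep or raise this count. The number of locus regions called lower, 3, did not: it was 7 with library background scaling, 1 with cyclic loess and 0 to 11 when 1 library was left out. Over the whole series, lower calls went from 174 to 755 and 74 under these scalings and to 42 to 2247 with 1 library left out, where higher calls, 188, went to between 71 and 890. A left-out library leaves 1 sample in a genotype, which is assumed to vary like the other genotype. Of 112 differences at single regions, 4 changed sign, and those from the pairing alternatives could not. With 1 library left out, Hbb-bh2 ranged from −0.49 to 0.27, being positive without Hemgn KO replicate 1. The region between the embryonic genes was at 0.039 with loess and ranged from −0.28 to 0.28 with 1 library left out, being positive in the absence of WT replicate 1 (0.28) or Hemgn KO replicate 1 (0.25).

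The difference between replicates 1 and 2 had a correlation of −0.17 between the genotypes over 27473 regions. This gives no sign of a pairing by replicate number, but with 2 libraries per genotype it cannot exclude one. With the replicate block the locus had 5 lower calls, and the series had 185 lower and 227 higher. The block cannot alter the differences in peak number (0.5), covered length (−0.633 kb) and median percentile (−1.89), which stayed the same by construction. With the numbers crossed there were 10 locus calls and 1478 lower and 717 higher calls in the series.

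The peak number difference was 0 with 100 kb flanks, −1.5 with lists cut to equal length by fold and 0 by −log10 q, and between −1 and 2 with 1 library left out. Covered length was between −1.58 and 0.313 kb with 1 library left out, the highest without Hemgn KO replicate 1. Using only the upper 50% of each list by fold left 1 region in all libraries, and 0 regions with both KO percentiles above. Requiring summits within 250 bp left 13 regions in all libraries. The far end of Hbb-bs then split into 1 WT-only and 1 KO-only region. Equal lists by fold gave 1 WT-only region. Left-out libraries gave 0 to 2 WT-only and 0 to 2 KO-only regions. The median percentile difference was between −7.45 and 2.03 with 1 library left out, being positive when WT replicate 1 (2.03) or Hemgn KO replicate 1 (1.42) was left out. Regions with both KO percentiles above numbered 2 with equal lists by fold and by −log10 q, 1 by percentile of −log10 p, 0 by percentile of fragments, and 4 to 7 with 1 library left out. Those with both below numbered 1 with 100 kb flanks, 2 with equal lists by fold, 3 by −log10 q, and 0 to 9 with 1 library left out. Fewer peaks or libraries enter the cut lists and the left-out settings, and otherwise the cause was not tested.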
